A study of Mus musculus with 4 samples.

Results

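The genes described here are 10 genes that identify the resident macrophages of the liver, the Kupffer cells: Clec4f, Timd4, Vsig4, Cd5l, Marco, Folr2, Cd163, Adgre1, Csf1r and Mpeg1. They were chosen by name, with earlier results of these data known, and all 10 were found among the 25655 genes of the deposited table. RNA-seq of whole liver compared 2 HFD-WT with 2 HFD-KO libraries, from mice given a high-fat diet (HFD) for 12 weeks beginning at 5 weeks of age. HFD-WT mice were ADAR2+/+/GluR-B R/R and HFD-KO mice were ADAR2-/-/GluR-B R/R, so both genotypes carried the pre-edited GluR-B allele that lets mice without ADAR2 survive. Both were offspring of heterozygous parents on a B6129S background, and the study's later experiments used males. The knockout was present in every cell of the body, so an action of ADAR2 loss in macrophages and one in hepatocytes cannot be told apart. Whole-liver RNA also mixes the transcripts of all its cells. For an analysis of gene sets in these livers the study names more mice per group than there are libraries here. Whether 1 library stands for 1 mouse or for several is not given in the sources used here, and the p-values measure only the spread between these libraries.

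Kupffer cells sit in the liver sinusoids, where they take up bacteria, complement-coated particles, aged red cells and dying cells from the blood. They are seeded before birth and keep their identity through signals from neighbouring endothelial, stellate and parenchymal cells, among them CSF1 and IL34, which act through the receptor encoded by Csf1r. In fatty liver disease resident Kupffer cells can be lost and replaced in part by macrophages derived from blood monocytes. Timd4 is used as a marker of the resident cells of embryonic origin.

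The libraries held between 24480798 and 28691330 counted reads, and 3 reads corresponded to 0.105 to 0.123 CPM, the reads of a gene scaled to a common library size. The smallest count of any of the 10 genes was 59 and all 10 passed the filter on low counts, so none was limited by detection. CPM values here use the library size adjusted by TMM. Genotypes were compared by edgeR's quasi-likelihood test, two-sided, over 12967 genes with Benjamini-Hochberg adjustment. Standard errors are given as SE. A negative log2 fold change means lower expression in HFD-KO. Adarb1, the gene that encodes ADAR2, had 15.7 and 19.8 CPM in HFD-WT and 6.23 and 9.55 CPM in HFD-KO (log2 fold change of -1.17 with a standard error of 0.20, adjusted p = 0.159 by edgeR). Reads on this gene were thus still counted in the HFD-KO libraries, and gene counts do not show on which exons they lay. The hepatocyte marker Alb was at 23702 to 29301 RPKM in the 4 libraries.

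Most Kupffer cell identity genes were lower in HFD-KO livers. By the fitted log2 fold change 9 of the 10 genes were lower, and 7 of them had an unadjusted p under 0.05: Vsig4, Mpeg1, Cd5l, Clec4f, Adgre1, Csf1r and Folr2. Over all genes tested, 4.73% were lower at that threshold and 48.4% were lower at all. For 8 of the 10 genes both HFD-KO libraries lay below both HFD-WT libraries, which was true of 20.3% of all genes tested. The median log2 fold change of the 10 genes was -0.53, against 0.01 over all genes tested, and 3.96% of the tested genes had a value at or below -0.53. Since the 10 genes were chosen with earlier results known, these shares are a description and not a test. At an adjusted p under 0.05, edgeR called 0 of the 10 genes, and 0.0771% of all genes, in either direction. DESeq2's Wald test called 3 of the 10 at that threshold, Mpeg1 (adjusted p = 0.00597), Cd5l (adjusted p = 0.00824) and Vsig4 (adjusted p = 0.0230), and it called 0.887% of all genes. In whole liver, fewer Kupffer cells and less of a transcript per Kupffer cell cannot be told apart.

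**Figure D1:**
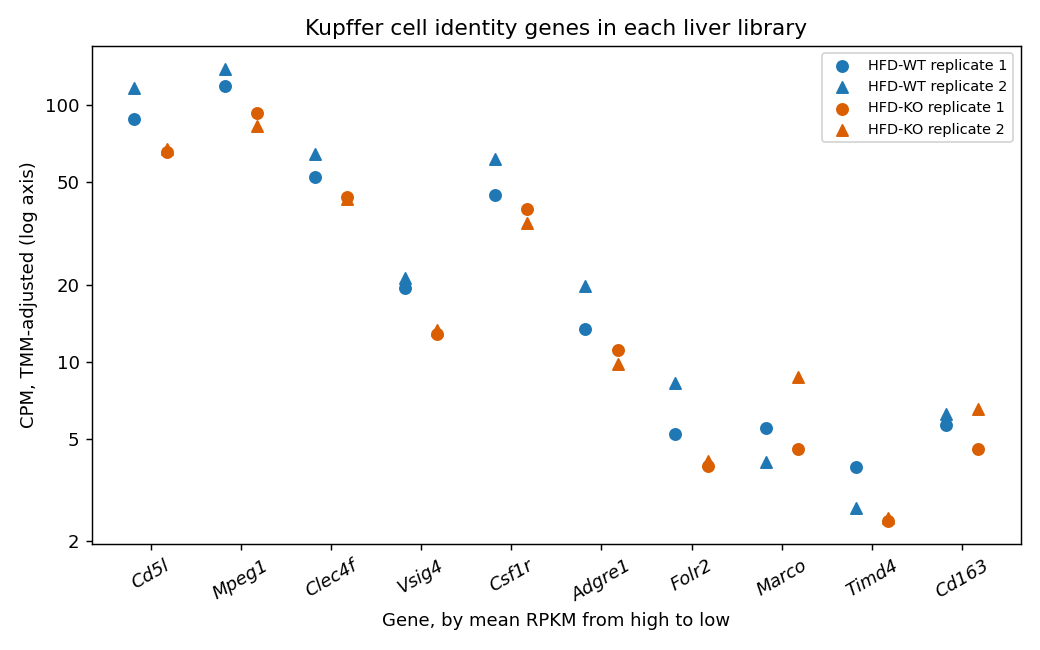
Expression of the 10 Kupffer cell identity genes in each library, in TMM-adjusted CPM on a log axis, with HFD-WT in blue, HFD-KO in orange, circles for replicate 1 and triangles for replicate 2. The orange points lie below the blue points for 8 genes, while Marco and Cd163 overlap.

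The levels of the genes relative to each other were compared by the authors' RPKM, which divide by gene length. Cd5l was the highest, with a mean of 38.5 RPKM over the 4 libraries, followed by Mpeg1 with 23.2 RPKM and Clec4f with 19.1 RPKM. Vsig4 followed with 10.8 RPKM and Csf1r with 8.39 RPKM. The other five were low, with 3.88 RPKM for Adgre1, 3.66 for Folr2, 2.73 for Marco, 1.22 for Timd4 and 1.19 for Cd163. Of the 9 pairs of neighbours in this order, 3 had ranges that did not touch, namely Clec4f above Vsig4, Csf1r above Adgre1 and Marco above Timd4. Timd4 and Cd163 exchanged places, each being the higher one in 2 of the libraries. The gene ranked first held 34.2% of the summed RPKM of the group and the first 3 together held most of it.

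Receptors for complement and for glycans were examined first. Vsig4 encodes CRIg, the receptor through which Kupffer cells catch complement-coated particles (ENSMUSG00000044206, GRCm39 chromosome X, 95290809 to 95337044). It had 19.4 and 21.2 CPM in HFD-WT and 12.9 and 13.3 CPM in HFD-KO. The replicates of each genotype lay close together and the gap between genotypes was wider than either pair. Its log2 fold change was -0.63 (SE 0.095, adjusted p = 0.112 by edgeR), which by p was the first of the 10 genes and rank 27 among all genes tested. Vsig4 in HFD-KO was thus at 64.5% of its mean level in HFD-WT. Left out one at a time, no library moved the log2 fold change outside -0.69 to -0.57.

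Clec4f encodes a C-type lectin found almost solely on Kupffer cells in the mouse (ENSMUSG00000014542, chromosome 6, 83621524 to 83633169). Its values were 52.5 and 64.3 CPM in HFD-WT and 43.8 and 43.1 CPM in HFD-KO. The HFD-KO pair was nearly equal, and the HFD-WT pair differed by more than HFD-KO replicate 1 differed from HFD-WT replicate 1. It differed by a log2 fold change of -0.43 (SE 0.11, adjusted p = 0.330 by edgeR), which is 74.3% of the HFD-WT level. Without HFD-WT replicate 2 it was -0.27 and no longer passed the unadjusted threshold.

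Timd4 encodes a phosphatidylserine receptor for the uptake of dying cells and marks Kupffer cells of embryonic origin (ENSMUSG00000055546, chromosome 11, 46701627 to 46735159). It was counted with 113 and 74 reads in HFD-WT and 63 and 59 reads in HFD-KO, or 3.90 and 2.69 CPM against 2.39 and 2.47 CPM. Both HFD-KO values were lower, but HFD-WT replicate 2 was close to them. The log2 fold change of -0.44 had a standard error of 0.25 (adjusted p = 0.668 by edgeR) and did not pass the unadjusted threshold in any of the 9 alternatives. Timd4 was also the only gene of the 10, besides Marco, that was higher in HFD-WT replicate 1 than in HFD-WT replicate 2.

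Scavenger receptors of the cysteine-rich family gave a mixed picture. Cd5l encodes AIM, a secreted protein of tissue macrophages with scavenger receptor cysteine-rich domains that circulates in blood (ENSMUSG00000015854, chromosome 3, 87265188 to 87278380). It had 88.1 and 117 CPM in HFD-WT and 65.5 and 67.7 CPM in HFD-KO. All HFD-KO values were below the lower HFD-WT value. This gave a log2 fold change of -0.62 (SE 0.13, adjusted p = 0.233 by edgeR), and it lay from -0.81 to -0.40 as single libraries were left out.

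Marco, a scavenger receptor that binds bacteria and particles, was the exception in direction (ENSMUSG00000026390, chromosome 1, 120402267 to 120432753). It had 5.52 and 4.07 CPM in HFD-WT and 4.56 and 8.71 CPM in HFD-KO. HFD-KO replicate 1 lay between the HFD-WT values and HFD-KO replicate 2 was the highest of all. In log2 terms the difference was 0.46 (SE 0.31, adjusted p = 0.707 by edgeR). It was -0.08 without HFD-KO replicate 2 and 0.86 without HFD-KO replicate 1, so its sign rested on HFD-KO replicate 2.

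Cd163, the receptor that clears haemoglobin bound to haptoglobin, overlapped between genotypes as well (ENSMUSG00000008845, chromosome 6, 124281615 to 124307486). It had 5.66 and 6.29 CPM in HFD-WT and 4.60 and 6.53 CPM in HFD-KO. The HFD-KO values lay on either side of the HFD-WT pair. Its log2 fold change was -0.11 (SE 0.20, adjusted p = 0.911 by edgeR), and it was 0.13 without HFD-KO replicate 1.

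Of the genes of macrophage identity and survival, Csf1r, Adgre1, Folr2 and Mpeg1 were each lower at an unadjusted p under 0.05 by edgeR. Csf1r encodes the receptor for CSF1 and IL34, on which macrophages depend for survival (ENSMUSG00000024621). It had 44.5 and 61.5 CPM in HFD-WT and 39.4 and 34.8 CPM in HFD-KO. The genotypes did not overlap, yet HFD-WT replicate 1 was nearer to HFD-KO replicate 1 than to the other HFD-WT library. This gave a log2 fold change of -0.51 (SE 0.15, adjusted p = 0.400 by edgeR), and without HFD-WT replicate 2 it was -0.26 and no longer passed the unadjusted threshold.

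Adgre1 encodes the macrophage antigen F4/80 (ENSMUSG00000004730, chromosome 17, 57665691 to 57790527). Its levels were 13.4 and 19.7 CPM in HFD-WT and 11.1 and 9.84 CPM in HFD-KO. The genotypes stayed apart, with HFD-WT replicate 2 well above the other three libraries. In log2 terms the difference was -0.66 (SE 0.18, adjusted p = 0.366 by edgeR), and -0.36, no longer past the unadjusted threshold, without HFD-WT replicate 2.

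Folr2 encodes folate receptor beta of tissue-resident macrophages (ENSMUSG00000032725, chromosome 7, 101489195 to 101506401). It had 5.25 and 8.29 CPM in HFD-WT and 3.91 and 4.10 CPM in HFD-KO. The HFD-WT libraries again differed more than the HFD-KO libraries. Folr2 had the most negative log2 fold change of the group, -0.75 (SE 0.24, adjusted p = 0.421 by edgeR), with a range from -1.05 to -0.39 when each library was left out. The value of -0.39 was the one without HFD-WT replicate 2, and it did not pass the unadjusted threshold.

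Mpeg1 encodes perforin-2, a pore-forming protein that macrophages use against ingested bacteria (ENSMUSG00000046805, chromosome 19, 12438143 to 12442647). It had 119 and 139 CPM in HFD-WT and 93.4 and 82.8 CPM in HFD-KO, the highest CPM of the group. Every HFD-KO value was below every HFD-WT value. It differed by a log2 fold change of -0.55 (SE 0.11, adjusted p = 0.212 by edgeR), and Mpeg1, Cd5l and Vsig4 were the 3 genes that kept an unadjusted p under 0.05 without HFD-WT replicate 2.

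**Figure D2:**
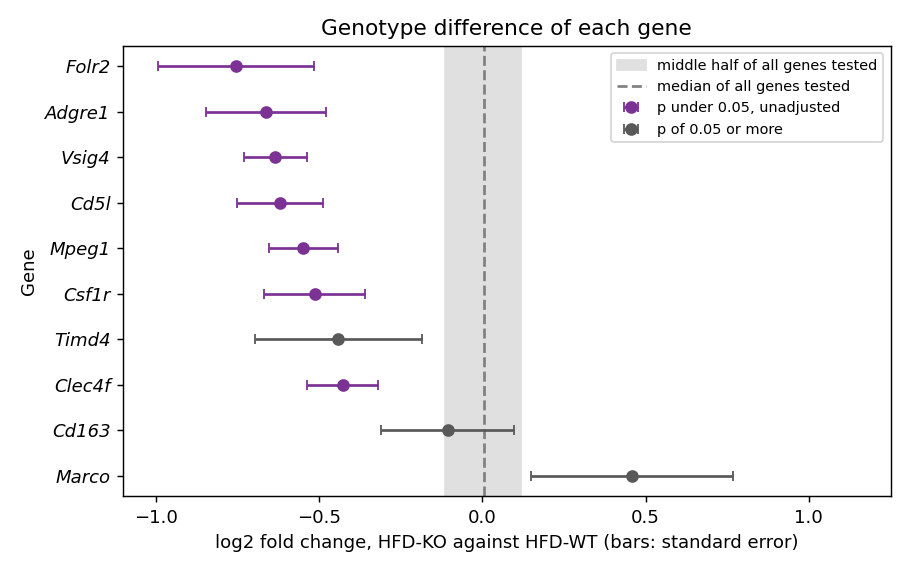
Log2 fold change between genotypes for each of the 10 genes (points, negative when lower in HFD-KO) with the standard error of the edgeR fit (bars), ordered from the most negative. The 7 purple points, with an unadjusted p under 0.05, lie between -0.75 for Folr2 and -0.43 for Clec4f, left of the grey band that holds the interquartile range of all genes tested, from -0.11 to 0.12.

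The weight of single libraries was then compared. The summed expression of the 10 genes was 357 and 444 CPM in HFD-WT and 281 and 273 CPM in HFD-KO, so HFD-WT replicate 2 stood highest and the HFD-KO libraries were nearly equal. Without HFD-WT replicate 2, 9 genes were still lower and the median log2 fold change was -0.37, against -0.53 with all libraries. It moved about as far the other way, to -0.68, without HFD-WT replicate 1. Without HFD-WT replicate 2, calls at an unadjusted p under 0.05 by edgeR fell among the 10 genes and also among all genes tested. Without any other single library, 7 genes were lower at that threshold. Without HFD-KO replicate 1, edgeR called 7 of the 10 genes at an adjusted p under 0.05, 6 lower and Marco higher, and without HFD-KO replicate 2 it called 4. Over all genes the calls at that threshold were 624 (4.81%) without HFD-KO replicate 1 and 373 (2.88%) without HFD-KO replicate 2, against 10 with all libraries.

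The upstream sequence of Vsig4, Cd5l and Marco is shown because Vsig4 and Cd5l were lower together while Marco was not, and because these are the windows of the group that hold the short purine-rich core of the PU.1 binding site. PU.1 is a transcription factor that macrophages need for their development. RefSeq promoter sequences on GRCm38.p6 matched 8 of the 10 genes, with 9 windows of 250 bases before the annotated start. The 8 letters of a full PU.1 box, GAGGAAGT, were searched on both strands and were in 0 of the 9 windows, against 2.45% of 32536 windows of all genes. The shorter core GAGGAA, which is a part of that box, was in 3 of the 9, against 23.4% of all windows. The MAF motif TGCTGAC was in 1 of the 9, that of Timd4, against 3.79% of all windows. The windows below run 5′ to 3′ along the gene, and capitals mark GAGGAA or its reverse complement. That of Vsig4 is chrX:96293439-96293688 on the minus strand and holds the core on the gene's strand from 155 and from 53 bases before the start. That of Cd5l is chr3:87357631-87357880 on the plus strand, with the core on the opposite strand from 66 bases before the start. That of Marco is chr1:120505025-120505274 on the minus strand, with the core from 146 bases before the start.
Vsig4: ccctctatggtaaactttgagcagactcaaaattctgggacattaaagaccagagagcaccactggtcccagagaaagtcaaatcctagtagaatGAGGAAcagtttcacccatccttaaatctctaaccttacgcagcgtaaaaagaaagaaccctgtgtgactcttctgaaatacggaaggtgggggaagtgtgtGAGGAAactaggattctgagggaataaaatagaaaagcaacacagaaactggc
Cd5l: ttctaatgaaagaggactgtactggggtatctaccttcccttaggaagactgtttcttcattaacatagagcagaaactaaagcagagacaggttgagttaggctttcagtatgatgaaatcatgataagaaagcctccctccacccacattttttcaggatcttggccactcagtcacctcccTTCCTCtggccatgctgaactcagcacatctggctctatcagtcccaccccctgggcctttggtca
Marco: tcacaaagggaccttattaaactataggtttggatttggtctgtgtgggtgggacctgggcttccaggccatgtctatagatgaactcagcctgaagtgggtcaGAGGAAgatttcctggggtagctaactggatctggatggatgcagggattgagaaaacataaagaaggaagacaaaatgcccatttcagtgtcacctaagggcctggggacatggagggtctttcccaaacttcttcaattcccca
The core was thus present upstream of a gene that was lower and of one that was not, and the match is a description of letters only.

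The make-up of the gene group was then examined within each library, by taking each gene's log2 CPM relative to the mean of the 10 in that library. Library scaling cancels from this measure. The values of the 10 genes balance each other in every library, so a gene that is higher relative to the group lowers the others. Marco was higher relative to the group in HFD-KO, at -1.62 and -0.80 against -1.72 and -2.35 in HFD-WT, a difference of 0.83. Cd163 was higher too, at -1.61 and -1.21 against -1.69 and -1.73, a difference of 0.30. Relative to the group Folr2, Vsig4 and Cd5l did not overlap and were lower in HFD-KO, with differences of -0.30, -0.21 and -0.19. Clec4f, Timd4, Adgre1, Csf1r and Mpeg1 overlapped, with differences from -0.22 to 0.01. An exact permutation over 2 and 2 libraries, two-sided, gives at best p = 0.333 for such a value, so these differences between genes were not tested.

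**Figure D3:**
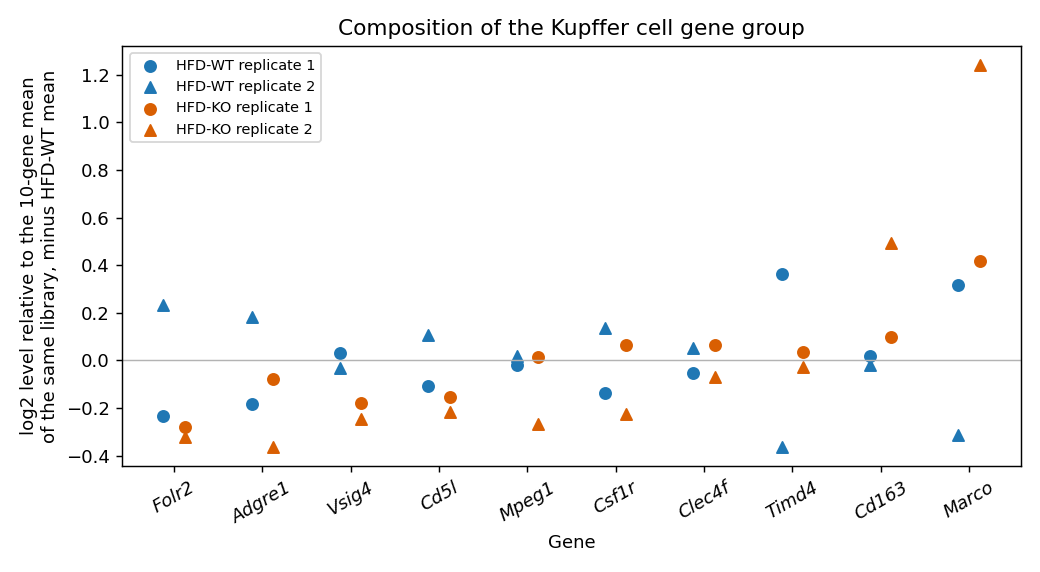
Log2 level of each gene relative to the mean of the 10 genes in the same library, drawn as the difference from its HFD-WT mean, with HFD-WT in blue, HFD-KO in orange and replicates as circles (1) and triangles (2). Marco and Cd163 lie above the HFD-WT points in both HFD-KO libraries, and Folr2, Vsig4 and Cd5l lie below them. The values of the 10 genes balance each other in each library by the way they are calculated.

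Further Kupffer cell genes were read from a list of 17, all of which were tested. In HFD-KO 15 were lower, 10 of them at an unadjusted p under 0.05, and 1 was higher at that threshold, with a median log2 fold change of -0.49. Over all genes tested 48.4% were lower, and at that threshold 4.73% were lower and 4.25% were higher. At an adjusted p under 0.05 edgeR called 0 of the 17. Dmpk had the smallest p, with 9.01 and 9.49 RPKM in HFD-WT and 6.25 and 5.28 RPKM in HFD-KO (log2 fold change of -0.63, SE 0.099, adjusted p = 0.115 by edgeR). Siglec1, the sialic acid receptor CD169 of tissue macrophages, had a log2 fold change of -0.76 (SE 0.16, adjusted p = 0.233). Cd207, the lectin langerin, had -0.88 (SE 0.30, adjusted p = 0.451), and Clec1b, the receptor CLEC-2, had -0.50 (SE 0.15, adjusted p = 0.400). The others lower at that threshold were Sdc3, Cfp, Hmox1, Slc16a9, Cd38 and Il18bp, with log2 fold changes from -0.77 to -0.24. The 3 genes with the highest level were Paqr9, Slc40a1 and C6. Whether their reads in whole liver came from Kupffer cells alone was not tested. Paqr9 was the gene that was higher, with 32.4 and 33.4 RPKM in HFD-WT and 39.3 and 41.3 RPKM in HFD-KO. Slc40a1, the iron exporter ferroportin, and C6, a terminal complement component, had log2 fold changes of -0.02 and -0.00014. The sum of the list, which these abundant genes weigh most, was 709 and 735 CPM in HFD-WT and 737 and 751 CPM in HFD-KO. Without HFD-WT replicate 2 the list had 4 genes lower at an unadjusted p under 0.05 by edgeR in place of 10.

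The list of transcription factors of Kupffer cells held 8 genes, all of which were tested. Of these, 2 were lower at an unadjusted p under 0.05 by edgeR, beside 4.73% of all genes tested. DESeq2's Wald test had 0 lower. By edgeR 1 was lower at that threshold without HFD-WT replicate 1, and 1 without HFD-WT replicate 2. Spi1, which encodes PU.1, had a log2 fold change of -0.39 (SE 0.13, adjusted p = 0.451), and Irf8 had -0.36 (SE 0.13, adjusted p = 0.482). Nr1h3, which encodes the oxysterol receptor LXR alpha, and Maf had log2 fold changes of -0.02 and 0.00, while Id3 and Spic had -0.32 (adjusted p = 0.566) and -0.35 (adjusted p = 0.788).

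Among 13 genes of the signals that maintain Kupffer cells, 2 were lower and 1 was higher at an unadjusted p under 0.05 by edgeR. At that threshold 4.73% of all genes tested were lower and 4.25% were higher. The ligands of the receptor encoded by Csf1r differed in sign. Csf1 had 2.31 and 2.22 RPKM in HFD-WT and 2.85 and 2.53 RPKM in HFD-KO, a log2 fold change of 0.30 (SE 0.11, adjusted p = 0.477). Il34 had 1.18 and 1.92 RPKM in HFD-WT and 0.780 and 0.950 RPKM in HFD-KO, a log2 fold change of -0.79 (SE 0.31, adjusted p = 0.510). Gdf2, which encodes the stellate cell ligand BMP9, had a log2 fold change of -0.30 (SE 0.099, adjusted p = 0.438). Neither the Notch ligands Dll1 and Dll4 nor Notch1, Notch2 and Rbpj passed that threshold, with log2 fold changes from -0.05 to 0.11. Without HFD-WT replicate 2, and with DESeq2's Wald test, 0 of the 13 passed in either direction.

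Genes shared by macrophages in general were lower as well. All 21 listed were tested and 21 were lower, against 48.4% of all genes tested. At an unadjusted p under 0.05 by edgeR 10 were lower, against 4.73% of all genes tested. The median log2 fold change of the list was -0.37, and edgeR called 0 of the 21 at an adjusted p under 0.05. The 3 most abundant were Lyz2, C1qb and C1qa. Those that passed the unadjusted threshold were the complement genes C1qa, C1qb and C1qc, the Fc receptor genes Fcgr1 and Fcgr3, and Tyrobp, Lgmn, Ctss, Cybb and Axl. C1qc had 30.1 and 38.8 RPKM in HFD-WT and 22.7 and 23.3 RPKM in HFD-KO (log2 fold change of -0.53, SE 0.12, adjusted p = 0.262 by edgeR). Lyz2, the lysozyme gene of myeloid cells, had 44.9 and 55.2 RPKM in HFD-WT and 48.3 and 29.6 RPKM in HFD-KO and overlapped. As single libraries were left out, the median log2 fold change of the list lay from -0.52 (without HFD-WT replicate 1) to -0.24 (without HFD-KO replicate 2). The mean log2 CPM of the 10 identity genes minus that of this list was 0.23 and 0.14 in HFD-WT and -0.03 and 0.33 in HFD-KO. The genotypes overlapped on that measure.

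Markers of monocytes and of lipid-associated macrophages were set beside the resident genes. The median log2 fold change of the 15 tested was -0.26. Of these, 4 were lower and 0 were higher at an unadjusted p under 0.05 by edgeR, against 4.73% and 4.25% of all genes tested. The 4 were Gpnmb (-0.94, adjusted p = 0.407), Itgax (-0.81, adjusted p = 0.359), Spp1 (-0.62, adjusted p = 0.313) and Mmp12 (-0.58, adjusted p = 0.551). Trem2 had 3.81 and 4.46 RPKM in HFD-WT and 3.44 and 1.32 RPKM in HFD-KO (adjusted p = 0.630). The monocyte genes Ly6c2 and Ccr2 had log2 fold changes of 0.45 (adjusted p = 0.760) and -0.33 (adjusted p = 0.786). The whole list summed to 171 and 206 CPM in HFD-WT and 145 and 150 CPM in HFD-KO, and Spp1 is also made by cholangiocytes. Without HFD-WT replicate 2 the list had 1 gene lower at an unadjusted p under 0.05 by edgeR, and without HFD-KO replicate 1 it had 7 lower and 1 higher. Without HFD-WT replicate 1 or HFD-KO replicate 2, 1 gene was higher as well. The mean log2 CPM of the 10 identity genes minus that of this list was 1.78 and 1.89 in HFD-WT. HFD-KO replicate 2 was above both, at 1.95, and HFD-KO replicate 1 was below both, so the genotypes overlapped.

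Among other cells of the sinusoid, endothelial and stellate cell genes differed from each other. The median log2 fold change of 11 genes of sinusoidal endothelial cells was -0.05. Of the 11, 2 were lower at an unadjusted p under 0.05 by edgeR, against 4.73% of all genes tested. These were Lyve1 (-0.70, SE 0.15, adjusted p = 0.233) and Mrc1 (-0.30, SE 0.10, adjusted p = 0.451), both of which macrophages can express too. Without HFD-WT replicate 2, 1 was lower at that threshold. Stab1, a scavenger receptor of these cells, did not pass it, although both HFD-KO values were below both HFD-WT values (-0.29, SE 0.13, adjusted p = 0.572). The other endothelial genes, among them Stab2, Clec4g, Kdr and Pecam1, had log2 fold changes from -0.11 to 0.06. The mean log2 CPM of the 10 identity genes minus that of the endothelial list was -0.78 and -0.77 in HFD-WT and -1.11 and -1.03 in HFD-KO, without overlap. Hepatic stellate cell and fibroblast genes were lower in 10 of 12 cases, against 48.4% of all genes tested. Their median log2 fold change was -0.32, and it lay from -0.54 to -0.26 as single libraries were left out. At an unadjusted p under 0.05 by edgeR 6 were lower, against 4.73% of all genes tested. The 6 were Col1a1, Col1a2, Col3a1, Reln, Dcn and Colec11, and Col1a1 had a log2 fold change of -0.87 (SE 0.17, adjusted p = 0.210 by edgeR). The sum of that list was 593 and 664 CPM in HFD-WT and 533 and 428 CPM in HFD-KO, so stellate cell genes moved with the Kupffer cell genes, and their part in the result was not tested. The identity genes minus the stellate list gave -0.53 and -0.54 in HFD-WT and -0.76 and -0.40 in HFD-KO on the mean log2 CPM scale, and here the genotypes overlapped. No gene on any of the lists had 0 reads in every library.

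**Figure D4:**
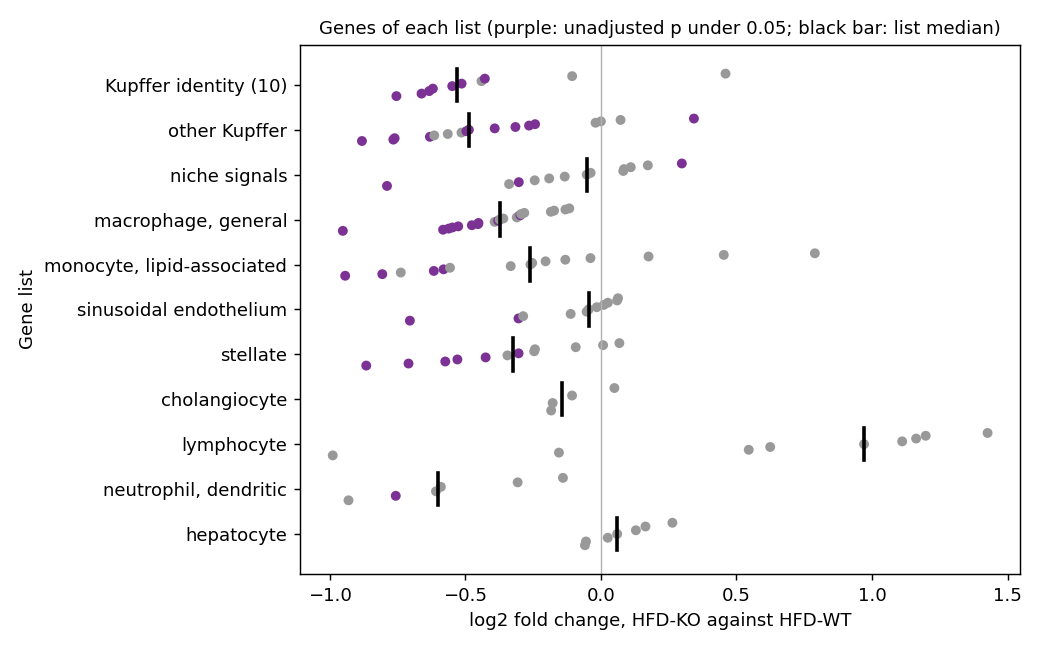
Log2 fold change between genotypes for every tested gene of each list except the transcription factors, with purple points at an unadjusted p under 0.05 by edgeR and a black bar at the list median. The medians of the Kupffer lists, -0.53 and -0.49, lie to the left of those of general macrophage genes (-0.37), stellate cell genes (-0.32), endothelial genes (-0.05) and hepatocyte genes (0.06), and that of neutrophil and dendritic cell genes lies further left at -0.60.

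The genes most like the group in pattern were sought among 11755 tested genes with a mean of at least 1 CPM, by the root mean square difference of centred log2 CPM over the 4 libraries. The closest were Hdc, Rad54l2, Dop1b, Ptger2 and Galnt18, at 0.026 to 0.032. Hdc, the histidine decarboxylase gene, had 3.97 and 4.73 CPM in HFD-WT and 3.04 and 3.27 CPM in HFD-KO. The same measure was between 0.058 and 0.55 for the 10 genes themselves. Of the 11755 genes, 241 were within 0.1, so over 4 libraries a like pattern was not confined to the 10 genes.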

How the data were processed

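Liver RNA was extracted with TRIzol, and directional libraries were sequenced as paired ends on a DNBSEQ-G400RS by the authors, who trimmed and aligned the reads with the alignment tool of MGI Tech. Gene expression was estimated in Partek Genomics Suite on GENCODE genes. Versions, strand use and the handling of multi-mapping reads are not given in the sources used here. The methods name mm10, while the submitters' processing notes list GRCm39 as well as mm10. Of the 10 genes, 0 have the same start and end in GENCODE M21 (GRCm38), so positions are given as the table's, on GRCm39.

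The authors deposited raw read counts per gene, which are the values tested here. The deposited RPKM values, divided by the authors by exon length and a library total somewhat above the sum of the counts, were used to compare levels between genes and, in part, to show list genes. The deposited TPM values and the deposited CPM values, a score on an adjusted library size, were not used. Genes with low counts were removed by filterByExpr, which left 12967 of 25655 genes. Counts were normalized by TMM and tested in edgeR 4.0.16 (R 4.3.3, limma 3.58.1) with the quasi-likelihood test, with no replicate block. The common biological coefficient of variation was 0.102. DESeq2 1.42.0 was an alternative. The procedure was also run on simulated data, and the outcome of that run is not used here. Standard errors are the absolute log2 fold change divided by the square root of the F statistic. Log2 CPM used a prior count of 2 for list means and patterns. Figures were drawn with matplotlib 3.10.9.

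The total count was 28691330 and 26907857 in HFD-WT and 26540624 and 24480798 in HFD-KO, and limits at 3 counts cover counting error only. The spread between replicates exceeded counting error (chi-square over degrees of freedom 10.3 in HFD-WT and 41.0 in HFD-KO). Groups and replicate numbers came from the sample titles. The alternatives were another scaling, no filter, DESeq2, each library left out, and the replicate number as a block. The members and lists were chosen with earlier results of these data known. The genes named are the 10 members, list genes with an unadjusted p under 0.05, the 3 most abundant of a list as examples, Adarb1, and the 5 genes closest in pattern. Other list genes named were chosen after their values were seen. The result of 1 listed gene is not reported here.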

Additional observations from a re-analysis of the deposited data

How the results depend on the processing

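With DESeq2's size factors, the library size alone, no filter on low counts, DESeq2's Wald test or the replicate block, 9 of the 10 genes were lower and 7 had an unadjusted p under 0.05. Genes at an adjusted p under 0.05 numbered 10, but 6 with the library size alone, 162 with no filter on low counts and 115 with DESeq2's Wald test, and 3 of the 10 members passed with either of the latter settings. Counted by the unadjusted threshold, 551 genes were higher and 613 lower. The library size alone gave 346 higher and 894 lower, and DESeq2's Wald test 298 higher and 373 lower, and the cause of the latter was not tested.

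When each library was left out, genes at an adjusted p under 0.05 ranged from 4 to 624, lower genes at an unadjusted p under 0.05 from 221 to 1070 and higher genes from 258 to 1033. Among the 10 genes, those lower at an unadjusted p under 0.05 ranged from 3 to 7, those at an adjusted p under 0.05 from 0 to 7, and the median log2 fold change from -0.68 to -0.37. The further Kupffer cell list had 4 to 9 genes lower at an unadjusted p under 0.05 and the general macrophage list 2 to 17, a count chosen after seeing the data. A group left with 1 library was assumed to vary like the other group. Marco ranged from -0.08 (without HFD-KO replicate 2) to 0.86, and Cd163 from -0.38 to 0.13 (without HFD-KO replicate 1), and both changed sign.

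The replicate numbers were not taken as pairs, since neither labels nor methods describe a pairing and same-numbered libraries had a correlation of deviations of -0.076. With the replicate block, 20 genes had an adjusted p under 0.05, and 0 of the 10 genes.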

Other observations

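Lymphocyte genes followed another pattern than the Kupffer cell genes. The 10 T, B and NK cell genes listed summed to 5.77 and 6.40 CPM in HFD-WT and to 15.6 and 4.61 CPM in HFD-KO, so HFD-KO replicate 1 stood above the other three libraries. Of the 9 tested, 0 passed an unadjusted p under 0.05 by edgeR or DESeq2's Wald test. By edgeR 7 were higher at that threshold without HFD-KO replicate 2, 2 with no filter on low counts and 1 with the replicate block, and 1 was lower without HFD-WT replicate 1. Cd79a, a component of the B cell receptor, had 0.464 and 0.615 RPKM in HFD-WT and 1.84 and 0.544 RPKM in HFD-KO. The median log2 fold change of the list was 0.97, and -0.51 without HFD-KO replicate 1.

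Neutrophil and dendritic cell genes were low. Of the 6 tested, 6 were lower in HFD-KO, 1 of them at an unadjusted p under 0.05 by edgeR, and that was Clec9a, a receptor of conventional dendritic cells, at -0.76 on the log2 scale (adjusted p = 0.483 by edgeR, with a standard error of 0.28). Over all genes tested 48.4% were lower, and 4.73% were lower at that threshold by edgeR. DESeq2's Wald test had 0 of the 6 lower at that threshold. By edgeR it was 0 without HFD-WT replicate 2 and 4 without HFD-KO replicate 2. Of the cholangiocyte genes 4 were tested and 0 passed that threshold by edgeR or DESeq2's Wald test. Of 7 hepatocyte genes 0 passed it, with a median log2 fold change of 0.06.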
